A study of Homo sapiens with 22 samples.

Results

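GAS5, SNHG1, SNHG3, SNHG5, SNHG8, SNHG12, SNHG15 and ZFAS1 are noncoding genes whose introns carry small nucleolar RNAs (snoRNAs), and they are the 8 genes described here, of 20668 gene symbols with an RPKM value (reads scaled by transcript length and by mapped reads). They were taken by name, as GAS5 and 7 further host genes of the same kind, by a rule that uses no measured value. MDA-MB-231, an established line of triple-negative breast cancer (TNBC) cells, was sequenced after vehicle or after a ligand of the glucocorticoid receptor (GR). Dexamethasone (Dex), a synthetic steroid agonist, was used at 100 nM, and compound A (CpdA), a nonsteroidal ligand, at 10 μM, each for 2 h and for 4 h. The 5 groups were vehicle, Dex 2 h, Dex 4 h, CpdA 2 h and CpdA 4 h, with 2 samples in each. All cells had been kept for days in phenol red-free medium with charcoal-stripped serum, which removes most steroids, so all groups share that steroid-poor state. No time point is given for the vehicle samples in the labels, so that hours in the incubator and ligand cannot be told apart where a treatment is compared with vehicle. Replicates were biological replicates of 1 cell line, and the p-values measure the spread between them.

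snoRNAs are cut out of the introns of a host transcript after splicing, and they guide 2′-O-methylation (box C/D class) or pseudouridylation (box H/ACA class) of ribosomal RNA. What is left of a noncoding host is a spliced RNA with short open reading frames only. Many of these RNAs open with a run of pyrimidines, the terminal oligopyrimidine (TOP) tract that ties translation to mTOR activity, and many are degraded by nonsense-mediated decay (NMD) when they are translated. GAS5 has a further role: a folded stretch of the RNA imitates a glucocorticoid response element and binds the DNA-binding domain of GR, so that it acts as a decoy of the receptor. GAS5 RNA is known to accumulate when growth stops.

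The windows around the transcription start are shown because the TOP tract lies there and because GR acts through DNA elements. Each sequence is from RefSeq, read on the strand of the gene and placed on GRCh37, with 50 bases before the start and 50 from it, and the first 10 transcribed bases are in capitals. RefSeq entries matched 7 of the 8 genes, all but SNHG15.
GAS5 (chr1:173838134-173838233, minus strand): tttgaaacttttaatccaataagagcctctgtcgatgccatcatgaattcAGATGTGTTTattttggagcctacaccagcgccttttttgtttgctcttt
SNHG1 (chr11:62623308-62623407, minus strand): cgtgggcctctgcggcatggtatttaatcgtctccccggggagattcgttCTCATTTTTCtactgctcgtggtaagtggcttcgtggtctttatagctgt
SNHG3 (chr1:28832405-28832504, plus strand): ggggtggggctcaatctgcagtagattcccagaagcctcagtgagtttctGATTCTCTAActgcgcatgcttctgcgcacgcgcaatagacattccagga
SNHG5 (chr6:86388402-86388501, minus strand): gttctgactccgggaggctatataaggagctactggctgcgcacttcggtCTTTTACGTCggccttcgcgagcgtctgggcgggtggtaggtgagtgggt
SNHG8 (chr4:119199867-119199966, plus strand): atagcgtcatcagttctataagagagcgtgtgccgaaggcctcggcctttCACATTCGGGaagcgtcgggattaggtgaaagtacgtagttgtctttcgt
SNHG12 (chr1:28908336-28908435, minus strand): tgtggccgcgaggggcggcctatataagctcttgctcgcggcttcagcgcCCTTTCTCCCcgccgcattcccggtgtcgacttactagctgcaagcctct
ZFAS1 (chr20:47895129-47895228, plus strand): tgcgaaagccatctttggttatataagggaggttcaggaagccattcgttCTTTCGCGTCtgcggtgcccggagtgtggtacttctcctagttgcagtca

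A C followed by 4 pyrimidines (C or T) stood at the start in 3 of the 7 windows, those of SNHG5, SNHG12 and ZFAS1, against 4.07% of 35116 RefSeq promoters. The same 3 genes held the letters TATATAA on the strand of the gene within the 50 bases before the start, which 0.672% of all promoters did. The RefSeq start of GAS5 lies 1056 bases upstream of the start that 50 of its 91 GENCODE transcripts share, and the sequence around that second start, read from the GRCh37 genome, does open with a pyrimidine run.
GAS5, GENCODE start (chr1:173837078-173837177, minus strand): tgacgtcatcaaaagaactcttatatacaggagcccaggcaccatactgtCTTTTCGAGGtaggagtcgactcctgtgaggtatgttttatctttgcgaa
The GR half-site AGAACA was searched on both strands of the whole 300-base RefSeq promoter, which ends 50 bases after the start. It was in none of the 7 RefSeq promoters and in 14.8% of all promoters. These are matches of letters, and they say nothing of binding.

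The labels were first set against genes that ligand-bound GR is known to switch on. All 5 genes of the check list (TSC22D3, FKBP5, PER1, KLF9 and DUSP1) rose under Dex at both times. TSC22D3, which encodes GILZ, was at 9.79 and 8.22 RPKM with vehicle and at 304 and 302 after 2 h of Dex. With CpdA, TSC22D3, PER1 and DUSP1 rose at 2 h and FKBP5 as well at 4 h. At CpdA 2 h the log2 difference from vehicle was 2.76 for DUSP1, 1.22 for PER1 and 0.44 for TSC22D3, where that of Dex 2 h was 2.95, 4.4 and 5.06. VIM, CD44, EGFR and CAV1, which mark these cells, were at 26.7 RPKM or above in each of the 10 samples. Of the receptors whose absence defines TNBC, ESR1 and PGR did not pass 0.00484 RPKM, while ERBB2, which encodes HER2, had RNA at 15.9 to 21.6 RPKM. Of the epithelial markers KRT18 was at 164 to 218 RPKM, EPCAM at 8.02 to 10.6 and CDH1 at 0.226 to 0.465. PTPRC, CD3E, PECAM1 and VWF, which mark blood and vessel cells, did not pass 0.324 RPKM. The number of reads is unknown. Relative depth, from the RPKM that a single read is worth, was 1.0 and 1.013 in the vehicle samples and between 1.058 and 1.212 in the treated samples.

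All 8 host genes were well above the filter on low values, which kept 12713 genes with at least 0.5 RPKM in at least 2 samples. SNHG5 was the most abundant, at a median of 141 RPKM over the 10 samples, followed by ZFAS1 at 97.1, SNHG8 at 55.6, SNHG1 at 47.8, GAS5 at 42.2, SNHG15 at 25.9, SNHG12 at 17.9 and SNHG3 at 13.6 RPKM. In vehicle SNHG5 lay above 97.4% of the genes kept, GAS5 above 86.7% and SNHG3 above 65.2%. Neighbours in this order kept their places in 10 of 10 samples except for 2 pairs. SNHG1 was above GAS5 in 8 of 10 samples, the exceptions being both Dex 2 h samples, and SNHG15 was above SNHG12 in 9 of 10, the exception being Dex 4 h replicate 1. RPKM is scaled per length, but how the authors combined transcripts of a gene is not stated, so that the order holds on the lengths they used.

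**Figure D1:**
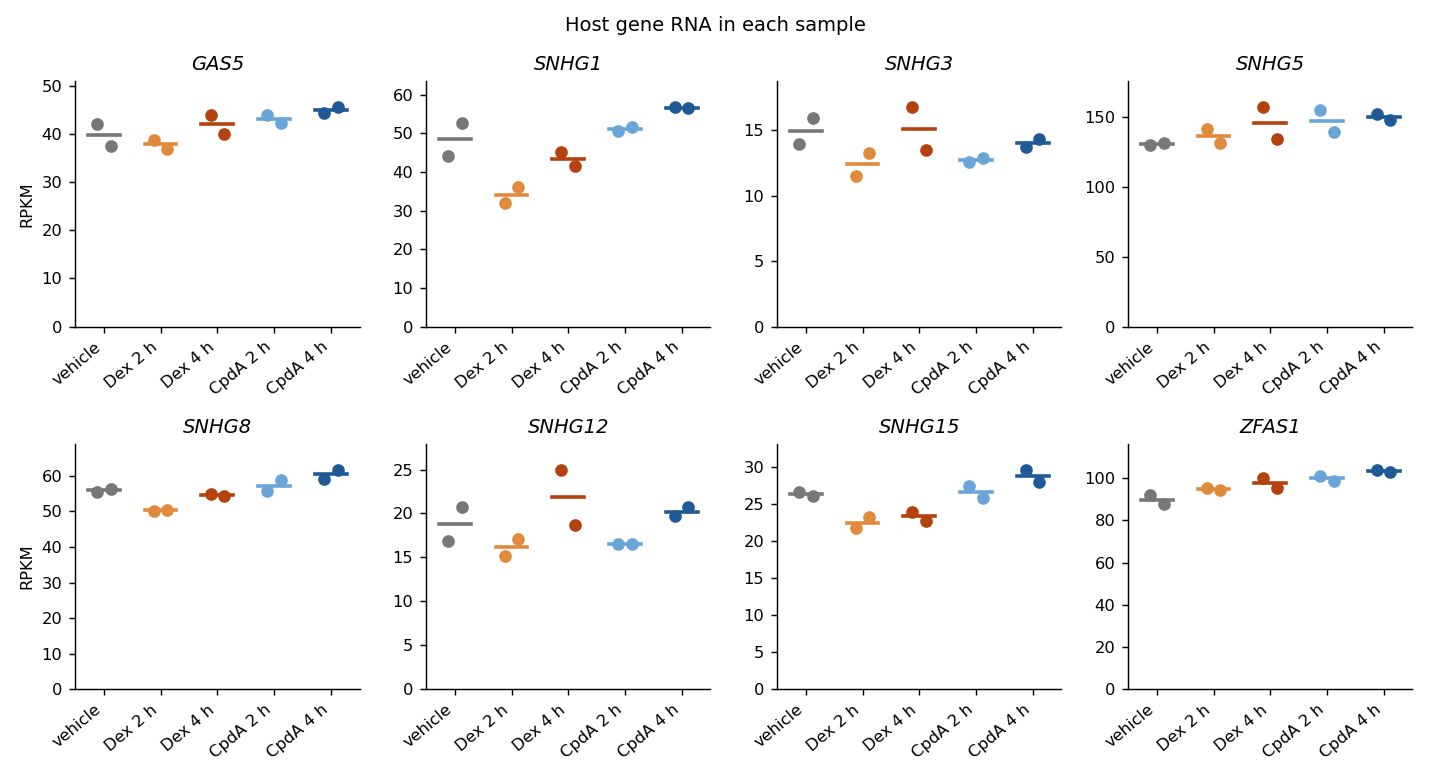
RPKM of each host gene (vertical axis, from 0) in the 10 samples, as points, by group, with the mean of each pair as a line. The 2 Dex 2 h samples of SNHG1 (32 and 36.1 RPKM) lie below its other 8 samples, and the points of ZFAS1 lie between 87.9 and 104 RPKM.

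GAS5, the decoy of the receptor, stayed within a narrow range. It was at 42.1 and 37.6 RPKM with vehicle, 38.8 and 36.9 after 2 h of Dex, 43.9 and 40 after 4 h of Dex, 44 and 42.3 after 2 h of CpdA, and 44.4 and 45.5 after 4 h of CpdA. The highest sample was 1.23 times the lowest. Both Dex pairs overlapped the vehicle pair, while the 4 CpdA samples were all above both vehicle samples. Against vehicle the log2 difference was −0.07 (95% interval −0.22 to 0.07, adjusted p = 0.615) at Dex 2 h and 0.08 (−0.07 to 0.22, adjusted p = 0.430) at Dex 4 h. It was 0.12 (−0.03 to 0.26, adjusted p = 0.346) at CpdA 2 h and 0.18 (0.03 to 0.32, adjusted p = 0.0850) at CpdA 4 h. Adjusted p-values here are from limma on log2(RPKM + 0.1), with Benjamini-Hochberg correction over 12713 genes, and a gene is said to rise or fall where the adjusted p is under 0.05. GAS5 did not pass in any of the 8 comparisons. The 4 comparisons with vehicle share the same 2 vehicle samples. The intervals leave room for differences from vehicle of at most 0.32 on the log2 scale in either direction. The 2 vehicle samples differed from each other by 4.49 RPKM, more than the Dex means differed from the vehicle mean. Without vehicle replicate 1 the CpdA 4 h difference was 0.26 with an adjusted p of 0.0362, and without the same sample the Dex 2 h difference was 0.01. Over its 15 alternatives the adjusted p at CpdA 4 h ran from 0.0362 to 0.369. Without vehicle replicate 2 the Dex 4 h difference was −0.01.

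The RNA of the receptor itself fell with Dex. NR3C1, which encodes GR, was at 22.9 and 20.4 RPKM with vehicle, 14.6 and 14.7 after 2 h of Dex, 9.96 and 12.1 after 4 h of Dex, 24.7 and 25.5 after 2 h of CpdA, and 23.0 and 22.1 after 4 h of CpdA. It fell by 0.56 on the log2 scale at Dex 2 h (adjusted p = 0.00269) and by 0.97 at Dex 4 h (adjusted p = 3.72e-05), with no call under CpdA. The ratio of GAS5 to NR3C1 RPKM was 1.84 ± 0.0078 (SD, n = 2) with vehicle, 2.59 ± 0.10 and 3.86 ± 0.77 after 2 h and 4 h of Dex, and 1.72 ± 0.085 and 2.00 ± 0.090 after 2 h and 4 h of CpdA. Each of the 4 Dex samples had a higher ratio than each of the other 6 samples. Between Dex and CpdA the ratio differed 1.51-fold at 2 h and 1.92-fold at 4 h, where 2 against 2 samples cannot go below an exact p of 0.333. The ratio counts RNA only, and neither GR protein nor free GAS5 was measured in these files.

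**Figure D2:**
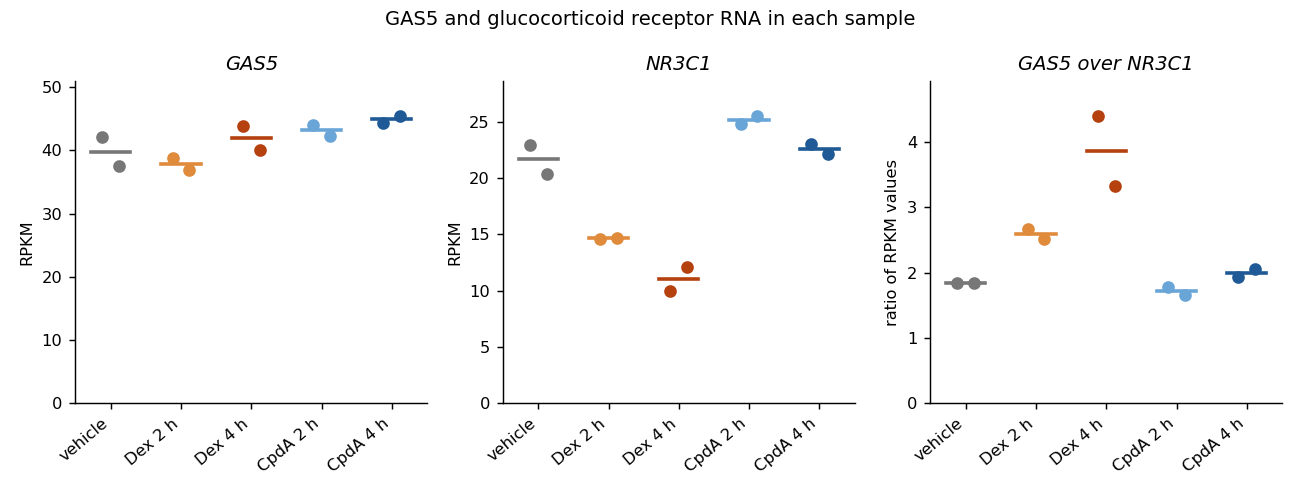
GAS5 RPKM, NR3C1 RPKM and their ratio (vertical axes, from 0) in each of the 10 samples, as points, with group means as lines. The ratio is highest at Dex 4 h (4.4 and 3.32) and the GAS5 points stay between 36.9 and 45.5 RPKM.

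SNHG1 had the largest called change of the 8 host genes. It is the host of SNORD22 and of the SNORD25 to SNORD31 series, box C/D snoRNAs. Its values were 44.2 and 52.6 RPKM with vehicle, 32 and 36.1 after 2 h of Dex, 45.0 and 41.5 after 4 h of Dex, 50.5 and 51.7 after 2 h of CpdA, and 56.7 and 56.5 after 4 h of CpdA. Both Dex 2 h samples were lower than each of the other 8, and both CpdA 4 h samples were higher than each of the other 8. SNHG1 fell by 0.50 on the log2 scale at Dex 2 h (95% interval −0.69 to −0.31, adjusted p = 0.00452), a change of −29.4%. At Dex 4 h the difference from vehicle was −0.16 (adjusted p = 0.210), and it was 0.08 (adjusted p = 0.651) at CpdA 2 h and 0.23 (adjusted p = 0.0897) at CpdA 4 h. The rise from Dex 2 h to Dex 4 h passed the test (log2 difference 0.35, 95% interval 0.15 to 0.54, adjusted p = 0.0290). That call was lost without Dex 2 h replicate 1 (0.26, adjusted p = 0.187) or without Dex 4 h replicate 1 (0.29, adjusted p = 0.115), and its adjusted p ran from 0.0222 to 0.187 over 15 alternatives. The vehicle samples themselves lay 8.42 RPKM apart, and the Dex 2 h difference ranged from −0.63 to −0.38 when 1 of the 4 samples was left out. The Dex 2 h call was lost only with no moderation of the variance (adjusted p = 0.0588, in a range of 0.00165 to 0.0588 over 15 alternatives). Without vehicle replicate 1 SNHG1 passed as lower at Dex 4 h (−0.28, adjusted p = 0.0371), and without vehicle replicate 2 as higher at CpdA 4 h (0.36, adjusted p = 0.0192), in ranges of 0.0371 to 0.809 and 0.0192 to 0.432.

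At Dex 2 h, 3 of the 8 host genes fell and none rose (SNHG1, SNHG8 and SNHG15). Over all genes kept, 5.82% fell and 10.3% changed in either direction. SNHG8, host of the box H/ACA snoRNA SNORA24, was at 55.6 and 56.2 RPKM with vehicle, 50.1 and 50.5 after 2 h of Dex, 54.8 and 54.2 after 4 h of Dex, 55.6 and 58.8 after 2 h of CpdA, and 59.2 and 61.6 after 4 h of CpdA. Its vehicle and Dex duplicates were close, and the Dex 2 h pair lay below each of the other 8 samples. SNHG15, host of SNORA9, was at 26.6 and 26.0 RPKM with vehicle, 21.7 and 23.2 after 2 h of Dex, 23.9 and 22.7 after 4 h of Dex, 27.4 and 25.7 after 2 h of CpdA, and 29.5 and 27.9 after 4 h of CpdA. The 4 Dex samples of SNHG15 were lower than each of the other 6 samples. The log2 difference was −0.15 for SNHG8 (adjusted p = 0.0462, a change of −10.0%) and −0.23 for SNHG15 (adjusted p = 0.0263, a change of −14.7%). Both calls are close to the threshold: that of SNHG8 was lost when any 1 of the 4 samples was left out (adjusted p from 0.0854 to 0.229). That of SNHG15 was lost without vehicle replicate 1, vehicle replicate 2 or Dex 2 h replicate 1 (adjusted p = 0.0893, 0.0818 and 0.210). Over 15 alternatives the adjusted p ran from 0.0302 to 0.229 for SNHG8 and from 0.0219 to 0.210 for SNHG15. The median log2 difference of the 8 host genes was −0.18, and that of all genes kept was −0.02.

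At Dex 4 h, 1 of the 8 host genes fell, SNHG15, and none rose, where 18.2% of all genes fell and 27.4% changed in either direction. SNHG15 fell by 0.17 on the log2 scale (adjusted p = 0.0410, 95% interval −0.30 to −0.05). It no longer passed in 9 of 15 alternatives, median scaling among them, where ZFAS1 passed instead, as higher than vehicle. The call was lost without vehicle replicate 1, vehicle replicate 2 or Dex 4 h replicate 2 (adjusted p = 0.148, 0.0840 and 0.113), with a range of 0.0365 to 0.230 over 15 alternatives. Dex 4 h replicate 1 was higher than replicate 2 for 8 of 8 host genes, while 53.0% of all genes were higher in replicate 1. The gap was widest for SNHG12 (24.9 and 18.7 RPKM), and without Dex 4 h replicate 2 SNHG5, SNHG12 and ZFAS1 passed as higher than vehicle and SNHG15 no longer passed. The median of the 8 was 0.04 and that of all genes −0.05.

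ZFAS1, which hosts SNORD12, SNORD12B and SNORD12C and lies antisense to the promoter of ZNFX1, was the one host gene of the 8 that rose against vehicle. Its values were 91.9 and 87.9 RPKM with vehicle, 95.4 and 94.4 after 2 h of Dex, 100.1 and 95.4 after 4 h of Dex, 101 and 98.9 after 2 h of CpdA, and 104 and 103 after 4 h of CpdA. All 8 treated samples were above both vehicle samples. At CpdA 4 h it rose by 0.20 on the log2 scale (95% interval 0.11 to 0.30, adjusted p = 0.00766), or 15.2%. The differences at Dex 2 h (0.08, adjusted p = 0.316), Dex 4 h (0.12, adjusted p = 0.0547) and CpdA 2 h (0.15, adjusted p = 0.0579) did not pass. Leaving out CpdA 4 h replicate 1 or replicate 2 gave an adjusted p of 0.0669 or 0.0539 with a like size (0.20 and 0.21), in a range of 0.00325 to 0.0669 over 15 alternatives. Without vehicle replicate 1 it passed at CpdA 2 h as well (0.19, adjusted p = 0.0473, in a range of 0.0272 to 0.340). ZFAS1 was the 1 of 8 host genes called at CpdA 4 h, where 6.76% of all genes rose and 20.5% changed. At CpdA 2 h none of the 8 was called (limma, 1 at an unadjusted p under 0.05), and 6.18% of all genes were. The median of the 8 was 0.06 at CpdA 2 h and 0.15 at CpdA 4 h, beside −0.02 and −0.04 for all genes.

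SNHG5, the most abundant of the 8 and host of SNORD50A and SNORD50B, was not called in any comparison. It was at 131 and 132 RPKM with vehicle, 142 and 131 after 2 h of Dex, 157 and 134 after 4 h of Dex, 155 and 140 after 2 h of CpdA, and 152 and 148 after 4 h of CpdA. The vehicle duplicates were 1.26 RPKM apart and the Dex 4 h duplicates 22.8 RPKM, so that both Dex 4 h samples lay above vehicle but far from each other. In the order Dex 2 h, Dex 4 h, CpdA 2 h, CpdA 4 h its log2 differences from vehicle were 0.06, 0.15, 0.17 and 0.20, with adjusted p-values of 0.761, 0.198, 0.274 and 0.112.

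SNHG3 and SNHG12 were the least abundant of the 8 and had the largest standard errors. SNHG3, host of the SNORA73 snoRNAs that act in the processing of 18S ribosomal RNA, was at 14.0 and 15.9 RPKM with vehicle, 11.5 and 13.2 after 2 h of Dex, 16.8 and 13.5 after 4 h of Dex, 12.6 and 12.9 after 2 h of CpdA, and 13.7 and 14.3 after 4 h of CpdA. Both 2 h pairs lay below the vehicle pair, and both 4 h pairs overlapped it. SNHG12, host of SNORA16A, SNORA44, SNORA61 and SNORD99, was at 16.8 and 20.8 RPKM with vehicle, 15.2 and 17.1 after 2 h of Dex, 24.9 and 18.7 after 4 h of Dex, 16.6 and 16.6 after 2 h of CpdA, and 19.7 and 20.7 after 4 h of CpdA. Neither gene passed the test in any of the 8 comparisons. The standard error of a difference was 0.11 for SNHG3 and 0.13 for SNHG12 on the log2 scale, against 0.04 for ZFAS1, so that a difference had to be larger to be called for these 2. The 95% interval at Dex 2 h was −0.51 to −0.03 for SNHG3 and −0.51 to 0.09 for SNHG12.

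**Figure D3:**
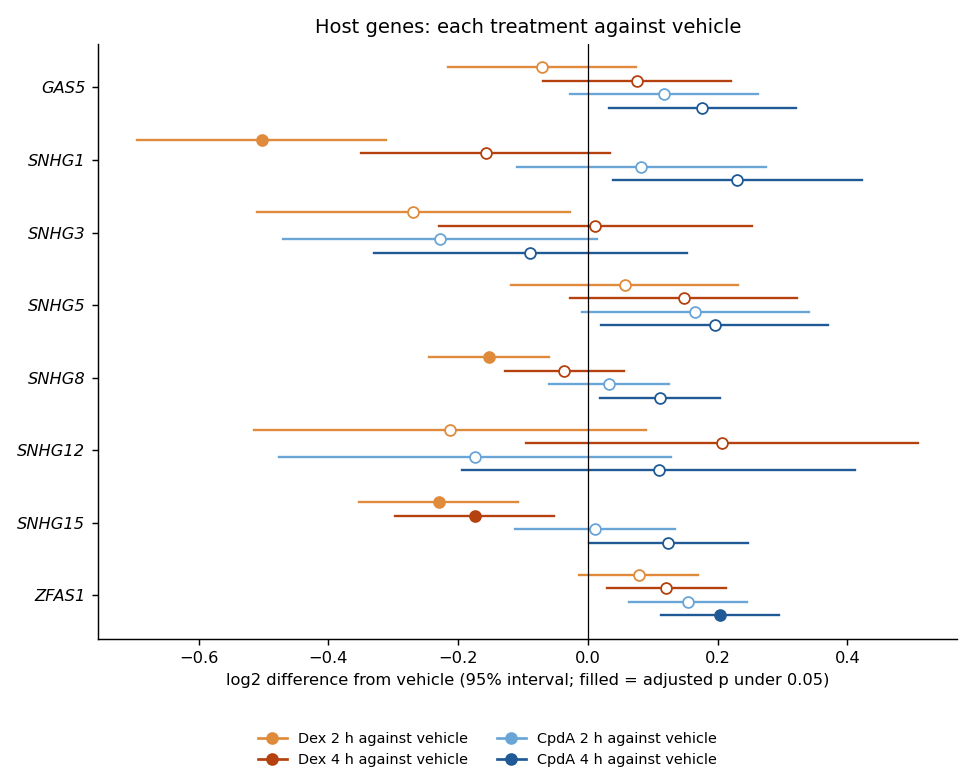
Log2 difference from vehicle (horizontal axis) of each host gene in the 4 treatments, with 95% intervals; filled points have an adjusted p under 0.05. The filled points are SNHG1, SNHG8 and SNHG15 at Dex 2 h, SNHG15 at Dex 4 h and ZFAS1 at CpdA 4 h, and all 4 intervals of SNHG12 cross 0.

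The ligands were then compared with each other at the same time. The difference itself does not involve the vehicle samples, but its standard error and p-value do, since the spread is estimated over all 10 samples. SNHG1, SNHG8 and SNHG15 were lower with Dex than with CpdA at 2 h and again at 4 h, and none of the 8 was higher. At 2 h these 3 of 8 stand beside 6.18% of all genes lower and 13.7% different in either direction, and at 4 h beside 18.0% and 33.4%. SNHG1 differed by −0.59 at 2 h (95% interval −0.78 to −0.39, adjusted p = 0.00146) and by −0.39 at 4 h (−0.58 to −0.20, adjusted p = 0.00681), or 1.5-fold and 1.31-fold. SNHG15 differed by −0.24 (adjusted p = 0.0169) and −0.30 (adjusted p = 0.00248), and SNHG8 by −0.19 (adjusted p = 0.0152) and −0.15 (adjusted p = 0.0214). The calls of SNHG1 at both times and of SNHG15 at 4 h held in all 15 alternatives. The SNHG8 call was lost at 2 h without Dex 2 h replicate 1, Dex 2 h replicate 2 or CpdA 2 h replicate 2, and at 4 h without CpdA 4 h replicate 2 or with only the 4 samples of the contrast, its adjusted p running from 0.0103 to 0.158 and from 0.0136 to 0.166. The SNHG15 call at 2 h was lost without Dex 2 h replicate 1, without CpdA 2 h replicate 1 or with no moderation of the variance, with adjusted p from 0.0138 to 0.156. GAS5 was lower in both Dex samples than in both CpdA samples at each time, by −0.19 (95% interval −0.33 to −0.04, adjusted p = 0.0958) and −0.10 (−0.25 to 0.04, adjusted p = 0.267), and neither passed. With only the 4 samples of the contrast in the fit GAS5 passed at 2 h (adjusted p = 0.0205, in a range of 0.0205 to 0.400 over 15 alternatives). The medians of the 8 were −0.15 at 2 h and −0.09 at 4 h, beside −0.01 and −0.02 for all genes.

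**Figure D4:**
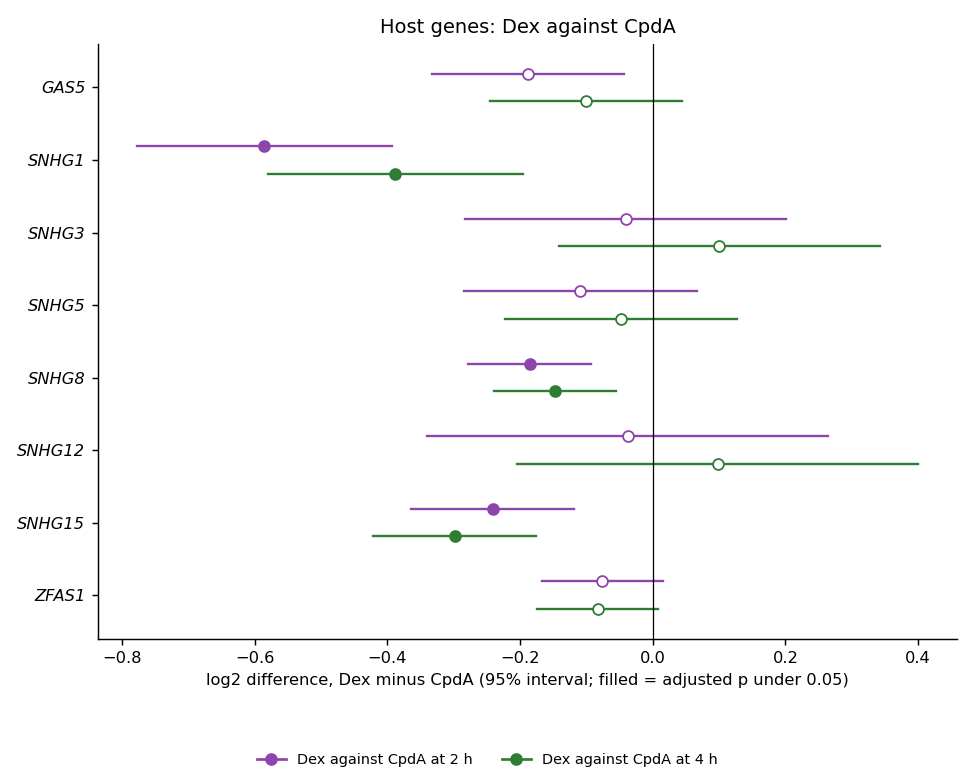
Log2 difference of Dex minus CpdA (horizontal axis) for each host gene at 2 h and at 4 h, with 95% intervals; filled points have an adjusted p under 0.05. SNHG1 at 2 h is farthest from 0 (−0.59), and only SNHG3 and SNHG12 at 4 h lie to the right of 0.

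From 2 h to 4 h the mean of 8 of 8 host genes was higher with Dex and of 8 of 8 with CpdA, where 43.6% and 46.6% of all genes had a higher mean. With Dex 1 of the 8 passed the test, SNHG1 (all genes: 4.55% higher, 13.6% in either direction), and with CpdA none did (limma, 0 at an unadjusted p under 0.05; all genes 12.4%). The largest difference that did not pass was that of SNHG12 with Dex, 0.42 (95% interval 0.12 to 0.72, adjusted p = 0.0704), and without Dex 4 h replicate 2 both SNHG3 and SNHG12 passed. The median of the 8 was 0.13 with Dex and 0.10 with CpdA, beside −0.03 and −0.01 for all genes. Dex 2 h had the lowest group mean for 6 of the 8, GAS5 among them, and vehicle for SNHG5 and ZFAS1. CpdA 4 h had the highest for 6 of the 8, and Dex 4 h for SNHG3 and SNHG12. How often these groups were lowest or highest among all genes was not computed, so these counts cannot be read as particular to the host genes. The largest fold difference of any of the 8 in the 8 comparisons was that of SNHG1 between the ligands at 2 h, given above, and none passed the 2-fold cutoff that the study used.

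Mature snoRNAs are short and carry no poly(A) tail, and their rows in the files were low. Of 29 snoRNA symbols of these hosts in the files, all 29 were below their host in each of the 10 samples, 10 were at 0 in at least 1 sample, and the median over symbols and samples was 0.939 RPKM. Duplicates of the 23 kept differed by a median of 0.52 on the log2 scale, against 0.07 for the host genes. SNORA61 of SNHG12 was the highest, between 4.89 and 10.9 RPKM. SNORD22, which lies in an intron of SNHG1, was at 5.42 and 4.74 RPKM with vehicle, 2.04 and 2.81 after 2 h of Dex, 3.37 and 3.25 after 4 h of Dex, 3.01 and 2.73 after 2 h of CpdA, and 4.02 and 3.73 after 4 h of CpdA. It fell at Dex 2 h (−1.05, adjusted p = 0.000856), Dex 4 h (−0.60, adjusted p = 0.00947) and CpdA 2 h (−0.80, adjusted p = 0.00951). The log2 difference of its host from vehicle at CpdA 2 h was 0.08, and the difference between the row and its host was not tested. SNORD28, another SNHG1 snoRNA, fell at Dex 2 h (−1.28, adjusted p = 0.0378), from 1.82 and 1.54 to 0.916 and 0.429 RPKM. Of the 23, 2 fell at Dex 2 h, 1 at Dex 4 h, 1 at CpdA 2 h and 0 at CpdA 4 h (limma, 2 at an unadjusted p under 0.05), and none rose. In the same order 10.3%, 27.4%, 6.18% and 20.5% of all genes changed in either direction, and 5.82% fell at Dex 2 h and 18.2% at Dex 4 h. The mean was below vehicle for 20 of the 23 at Dex 2 h and for 20 of the 23 at CpdA 2 h, with medians of −0.68 and −0.59, where 7168 and 7013 of all 12713 genes were lower, and both counts rest on the same vehicle samples. At Dex 4 h and CpdA 4 h the mean was lower for 8 and 16 of the 23. Reads of a snoRNA row could be from the mature snoRNA, the unspliced host or a retained intron, and these cannot be told apart here.

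Most hosts share their locus with another gene, and whether the authors counted reads by strand is not stated. SLC3A2, the heavy chain of amino acid transporters, starts 51 bases from SNHG1 on the opposite strand. It was at 128 and 147 RPKM with vehicle, 117 and 123 after 2 h of Dex, 130 and 133 after 4 h of Dex, 149 and 150 after 2 h of CpdA, and 182 and 182 after 4 h of CpdA. Like SNHG1 it was lower with Dex than with CpdA, at −0.31 for 2 h (adjusted p = 0.00756) and −0.47 for 4 h (adjusted p = 0.000303), and it rose at CpdA 4 h (0.41, adjusted p = 0.00167). Near GAS5, ZBTB37 was between 0.739 and 1.32 RPKM and GAS5-AS1 between 0.205 and 0.650, both on the opposite strand and both far below GAS5. RCC1, which overlaps SNHG3 on the same strand, was between 31.3 and 35.9 RPKM, above SNHG3 in each of the 10 samples, so a read shared by both cannot be assigned. TRNAU1AP, opposite SNHG12, was between 9.01 and 10.8 RPKM, and ZNFX1, opposite ZFAS1, between 14.3 and 18.1.

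The other snoRNA hosts were read as a noncoding and a protein-coding list. Of all genes 10.3% changed in either direction at Dex 2 h, 27.4% at Dex 4 h, 6.18% at CpdA 2 h and 20.5% at CpdA 4 h, and these shares stand beside the counts. Of 12 further noncoding hosts kept, 2 fell at Dex 2 h (SNHG10 at −0.45 and SNHG17 at −0.31, adjusted p = 0.0146 and 0.0246). At Dex 4 h the same 2 fell (−0.34 and −0.25, adjusted p = 0.0239 and 0.0294), while DANCR (0.27, adjusted p = 0.0240) and EPB41L4A-AS1 (0.17, adjusted p = 0.0312) rose. At CpdA 2 h none was called (limma, 2 at an unadjusted p under 0.05), and at CpdA 4 h SNHG20 and SNHG10 fell (−0.48 and −0.34, adjusted p = 0.0441 and 0.0326). Between the ligands SNHG17 was the only 1 of these 12 called at either time. It was lower with Dex than with CpdA at 2 h and 4 h (−0.36 and −0.34, adjusted p = 0.00987 and 0.00579). Of all genes 6.18% were lower and 13.7% differed in either direction at 2 h, and 18.0% and 33.4% at 4 h. Of 45 protein-coding hosts kept, 2 fell at Dex 2 h, 3 fell and 1 rose at Dex 4 h, 1 fell at CpdA 2 h, and 9 rose and 3 fell at CpdA 4 h. PPAN, a ribosome assembly factor, fell in all 4 treatments, with log2 differences of −0.31, −0.40, −0.43 and −0.31 (adjusted p = 0.000881, 8.41e-05, 0.000476 and 0.000833), and was the one of the 45 called at CpdA 2 h. RABGGTB, a subunit of the Rab prenylation enzyme, fell under Dex at both times (−0.25 and −0.22, adjusted p = 0.0119 and 0.0111), and RPL10, a ribosomal protein gene, rose at Dex 4 h (0.17, adjusted p = 0.0331), where WDR43, a nucleolar assembly factor, fell (−0.32, adjusted p = 0.00161). HSPA8 and HSPA9, the constitutive and the mitochondrial HSP70 chaperone, rose most at CpdA 4 h (0.45 and 0.33, adjusted p = 0.00356 and 0.000495), and the splicing factor SF3B3 fell (−0.20, adjusted p = 0.0472), as did PPAN and RCC1 (−0.14, adjusted p = 0.0414). Medians in the order Dex 2 h, Dex 4 h, CpdA 2 h, CpdA 4 h were −0.01, −0.01, −0.01 and 0.05 in the noncoding list and −0.01, 0.04, 0.03 and 0.10 in the protein-coding list.

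**Figure D5:**
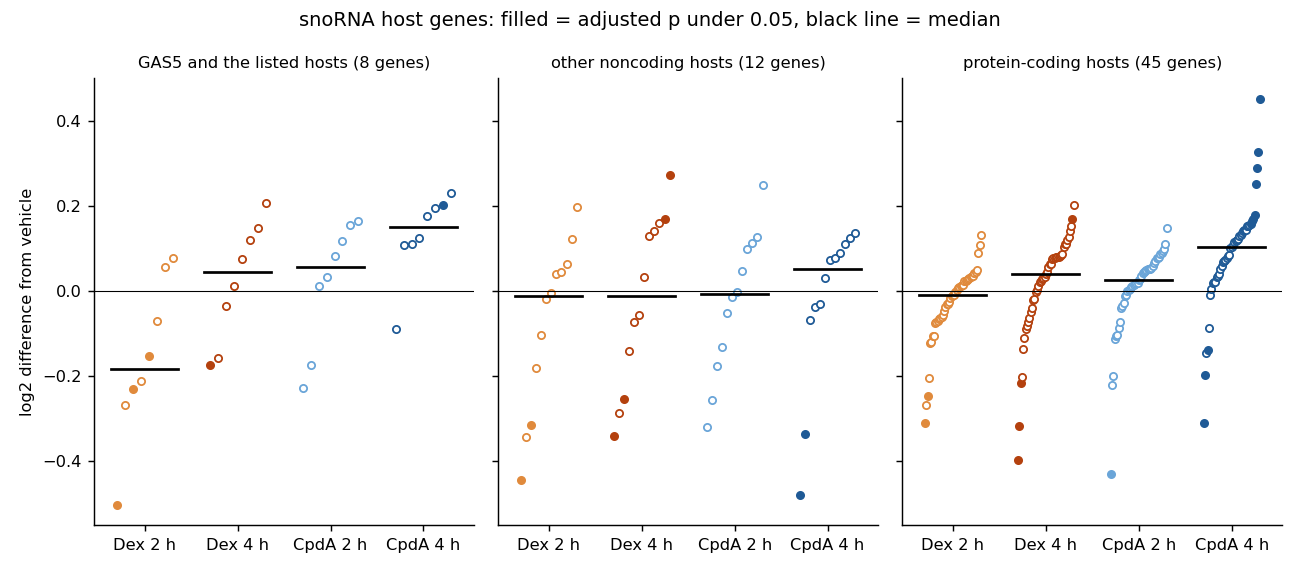
Log2 difference from vehicle (vertical axis) of each host gene in 3 lists for the 4 treatments; filled points have an adjusted p under 0.05 and black lines are medians. The 8 genes described here have medians from −0.18 (Dex 2 h) to 0.15 (CpdA 4 h), and the 45 protein-coding hosts from −0.01 to 0.10.

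The proteins that assemble snoRNPs, the NMD factors and the mTOR pathway were read as lists, since each acts on these RNAs or their snoRNAs. Of 16 snoRNP genes 3 fell at Dex 2 h, 5 at Dex 4 h, 0 at CpdA 2 h (limma, 3 at an unadjusted p under 0.05) and 1 at CpdA 4 h, and none rose. ZNHIT6, a box C/D assembly factor, fell from 9.60 and 9.93 RPKM with vehicle to 8.12 and 7.62 after 2 h and 6.75 and 6.52 after 4 h of Dex (−0.31 and −0.55, adjusted p = 0.00417 and 5.24e-05). NAF1, a box H/ACA assembly factor, fell likewise (−0.26 and −0.50, adjusted p = 0.0321 and 0.000400), and so did NOP58, a core box C/D protein (−0.15 and −0.27, adjusted p = 0.0261 and 0.000547). The other 2 at Dex 4 h were NUFIP1 and NOLC1 (−0.30 and −0.29), and the 1 at CpdA 4 h was ZNHIT6 (−0.18, adjusted p = 0.0348). Of all genes 10.3%, 27.4%, 6.18% and 20.5% changed in the 4 treatments in the same order, which also stand beside the NMD and mTOR counts. Of 18 NMD genes 1 fell at Dex 2 h, SMG8 (−0.24, adjusted p = 0.0209). At Dex 4 h SMG8 fell and RBM8A, of the exon junction complex, rose (−0.18 and 0.21, adjusted p = 0.0371 and 0.00796). At CpdA 2 h none was called (limma, 3 at an unadjusted p under 0.05), and at CpdA 4 h RBM8A and the release factor ETF1 rose (0.23 and 0.22, adjusted p = 0.00733 and 0.0109).

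Of 15 mTOR pathway genes kept, DDIT4, an inhibitor of mTOR complex 1, changed most, from 53.8 and 49.1 RPKM with vehicle to 364 and 362 after 2 h and 335 and 329 after 4 h of Dex, and to 193 and 182 after 2 h and 123 and 126 after 4 h of CpdA. SESN2, another inhibitor, fell at Dex 2 h (−0.55, adjusted p = 0.00467) and rose at CpdA 2 h and CpdA 4 h (0.86 and 0.98, adjusted p = 0.00102 and 0.000177). SESN1 rose at Dex 4 h (0.33, adjusted p = 0.0110), and EIF4EBP2, a repressor of translation downstream of mTOR, fell at CpdA 2 h and 4 h (−0.51 and −0.50, adjusted p = 0.00131 and 0.000503). By contrast EIF4EBP1 rose at CpdA 4 h (0.24, adjusted p = 0.00245), as did LARP1, RHEB and AKT1S1 (0.31, 0.20 and 0.19, adjusted p = 0.0218, 0.0405 and 0.00539). In all 1 of the 15 rose and 1 fell at Dex 2 h, 2 rose at Dex 4 h, 2 rose and 1 fell at CpdA 2 h, and 6 rose and 1 fell at CpdA 4 h. From Dex 2 h and Dex 4 h to CpdA 2 h and CpdA 4 h, medians were −0.11, −0.08, −0.08 and 0.06 for the snoRNP list, −0.06, −0.07, −0.07 and 0.02 for the NMD list, and 0.02, −0.04, 0.01 and 0.09 for the mTOR list. Those of all genes were −0.02, −0.05, −0.02 and −0.04. A part of any of these genes in the host RNA values was not tested.

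The genes closest to GAS5 over the 10 samples, apart from their level, were RPS12, MYL12A, ATP6V1E1, PPAPDC1B and TRIP4. Likeness was the root mean square difference of the log2 values, each centred on its own mean, which was 0.043 for RPS12 and 0.049 for TRIP4. The measure counts the size of changes as well as their shape, so a gene that varies far more than GAS5 ranks low whatever its shape. RPS12, a ribosomal protein gene that also hosts snoRNAs, was between 234 and 277 RPKM. Among 12712 other genes ZFAS1 ranked 36, SNHG5 154, SNHG8 193, SNHG15 1831, SNHG3 6402, SNHG12 7910 and SNHG1 8606 by the same measure. SNHG1, next to GAS5 in level, was the least like it of the 7 on this measure.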

How the data were processed

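RNA from MDA-MB-231 cells (RNeasy extraction, Illumina TruSeq RNA libraries, 50-base single-end reads) was measured in 10 samples, 2 in each of 5 groups. The authors deposited RPKM values, 1 per gene symbol and sample. Per the labels' processing notes the tools were TopHat2 2.0.13, Bowtie and Partek 6.6, with hg19 as a build whose role is not given. How transcripts were combined into symbols, the strand setting and the read totals are not given in the sources used here, so no counting interval was computed and a count test did not apply. The 12 ChIP samples of the series were not analysed here.

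Tests ran on log2(RPKM + 0.1) of the genes with at least 0.5 RPKM in at least 2 samples. A single model with a term per group gave all 8 comparisons (two-sided), using limma 3.58.1 under R 4.3.3 and its trended empirical Bayes variance. A fold change on this scale understates the change of low genes. Groups came from the sample labels. Standard errors rest on 5 residual degrees of freedom before moderation. On simulated data for Dex 2 h against vehicle (12713 genes), the fit found 145 of 200 genes given a log2 change of 0.5 and 197 of 200 given 1.5, each with 8 false calls, and it made 0 calls with none changed. Changes below 0.5 were not simulated, so these figures do not cover the smaller differences of most host genes.

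The 8 genes, the gene lists and the tests were chosen with earlier results of these data known. All 8 were named. Of every other list, the 2 that rose most and the 2 that fell most were named for each treatment among those past an adjusted p of 0.05 with both treated samples outside the vehicle range, together with overlapping and neighbouring genes, the 5 genes most like GAS5, and NR3C1. Some further called genes of these lists were named beside them. Neighbours and starts came from GENCODE v44 on GRCh37. RefSeq promoters were placed on GRCh37 by their sequence. Whether replicate numbers pair the samples was checked by the correlation of deviations from group means, which was 0.0544 on average over 10 pairs of groups (−0.0568 to 0.198, over 0.1 in 3), so the numbers were not taken to pair them. Alternatives changed the pseudocount, filter, scaling, variance model and samples in the fit. Python 3.11.15, pandas 2.3.3, numpy 2.4.6, scipy 1.17.1 and matplotlib 3.10.9 were used.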

Additional observations from a re-analysis of the deposited data

Results flagged for a closer look

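SNHG1, SNHG8 and SNHG15 differed between the ligands at a matched time, each by a test of that difference (limma, adjusted over 12713 genes). At 2 h the log2 difference of Dex minus CpdA was −0.59 for SNHG1, −0.19 for SNHG8 and −0.24 for SNHG15, with both Dex samples below both CpdA samples for each. At 4 h it was −0.39 for SNHG1, −0.15 for SNHG8 and −0.30 for SNHG15, again with no overlap of the pairs. Such pairs are common: both Dex samples were below both CpdA samples for 3740 of all 12713 genes at 2 h and 4477 at 4 h. SNHG1 also differed between the time points of Dex, by 0.35, with both 4 h samples above both 2 h samples, as for 2575 of all 12713 genes. Groups of 2 samples are too small for a search for single samples that stand apart.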

How the results depend on the processing

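Each host gene was refitted in each comparison with 11 other settings and with 1 sample left out at a time. How many of the 8 passed an adjusted p of 0.05 moved easily. At Dex 2 h (3 as reported) 1 passed with no filter on low values, with median scaling, with no abundance trend or with only the 4 samples of the contrast, and 0 with no moderation of the variance. With a sample left out the count ran from 1 to 2. SNHG1 was the gene kept wherever 1 passed. With median scaling at Dex 4 h the count stayed at 1, but the gene was ZFAS1, as higher than vehicle, in place of SNHG15. At Dex 4 h (1 as reported) 0 passed with no filter, quantile normalization, no abundance trend, no moderation or only the 4 samples, 2 with the replicate block, and from 0 to 3 with a sample left out. At CpdA 2 h (0 as reported) 1 passed, ZFAS1, with quantile normalization or the replicate block, and from 0 to 1 with a sample left out. At CpdA 4 h (1 as reported) 3 passed with median scaling or the replicate block, 2 with only the 4 samples, and from 0 to 2 with a sample left out. Between the ligands at 2 h (3 as reported) 2 passed with no moderation (SNHG15 lost), 4 with only the 4 samples or with the replicate block (GAS5 gained, adjusted p = 0.0205 and 0.0405), and from 1 to 2 with a sample left out. Between the ligands at 4 h (3 as reported) 2 passed with only the 4 samples (SNHG8 lost), 4 with quantile normalization (ZFAS1 gained), and from 2 to 3 with a sample left out. From Dex 2 h to Dex 4 h (1 as reported) 0 passed with no filter, no abundance trend, no moderation or only the 4 samples, 2 with median scaling, and from 0 to 3 with a sample left out. From CpdA 2 h to CpdA 4 h (0 as reported) 3 passed with only the 4 samples.

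GAS5 passed at CpdA 4 h with median scaling (0.24, adjusted p = 0.0392) and with the replicate block (0.18, adjusted p = 0.0380). With a sample left out its difference ran from 0.10 to 0.26 there, from −0.15 to 0.011 at Dex 2 h and from −0.0055 to 0.16 at Dex 4 h. The sign also turned for differences near 0: SNHG8 at Dex 4 h was 0.034 with median scaling. With a sample left out SNHG3 ran from −0.14 to 0.17 at Dex 4 h and from −0.18 to 0.0070 at CpdA 4 h, and SNHG12 from −0.041 to 0.26 at CpdA 4 h. At CpdA 2 h SNHG1 ran from −0.043 to 0.21, SNHG8 from −0.0074 to 0.073 and SNHG15 from −0.033 to 0.055. The cause of these moves was not tested. No difference that passed as reported changed its sign in any of its alternatives. Read totals are unknown, and with 2 samples a group a fit that leaves 1 alone assumes that it varies like the others.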
